A study of Mus musculus with 6 samples.

Results

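The Rhox genes are a family of X-linked homeobox genes named for their expression in reproductive tissues, and 6 of them are described here. The set was Rhox5, Rhox8, Rhox6, Rhox9, Rhox10 and Rhox13, chosen by gene name, and it holds 10 of the 140727 named transcripts and 6 of the 49203 named genes in the deposited tables. Their transcripts were quantified in 6 total RNA libraries of mouse Sertoli cells, which nurse germ cells inside the testis tubule. Of the lines behind these libraries, 3 were labelled GFP-positive (2, 4 and 7) and 3 GFP-negative (9, 11 and M), after a green fluorescent reporter on the Y chromosome. The strain, age, growth conditions, the promoter of the reporter and whether each line is 1 clone are not given in the sources used here. The labels do not tie the replicates to separate animals or cultures. A p-value here therefore reflects the variation among these libraries, part of which may be technical.

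RHOX proteins are homeodomain transcription factors encoded by a cluster of tandem genes on the mouse X chromosome, many of them copies of one another. In the mouse testis, Rhox5 and Rhox8 are known from Sertoli cells, where Rhox5 depends on androgen, and Rhox10 and Rhox13 are known from germ cells, while Rhox6 and Rhox9 are known from the placenta and from embryonic germ cells. In somatic tissues the cluster is a textbook example of genes held silent by DNA methylation.

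The 2 genes known from Sertoli cells, Rhox5 and Rhox8, were low, at 0.549 FPKM or less in every library. Rhox6, Rhox9 and Rhox10 were low as well. The germ cell gene Rhox13 was the highest of the 6 genes, in the GFP-positive libraries. Rhox13 averaged 1.34 ± 0.43 FPKM in GFP-positive libraries and 0.0254 ± 0.044 FPKM in GFP-negative libraries (SD, n = 3 each), and it was the 1 gene of the set that could be tested by limma above the filter. Rhox6, Rhox9 and Rhox10 were above 0 in all 3 GFP-positive libraries and listed at 0 in all 3 GFP-negative libraries, at levels under 0.35 FPKM. Rhox5 was also above 0 in all 3 GFP-positive libraries, with a mean of 0.189 FPKM, close to Rhox6 (0.211 FPKM) and Rhox10 (0.205 FPKM). The groups overlapped for Rhox5 and Rhox8, and neither passed a test of the difference. Levels are FPKM, a measure of fragments per length of transcript and per depth of library, summed over the transcripts of a gene and scaled between libraries by the median of ratios. Being per length, they allow a rough comparison between genes, although some difference between the groups still followed transcript length.

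Aligned bases amounted to 11.2, 11.8 and 11.3 Gb in GFP-positive 2, 4 and 7, against 10.02, 9.67 and 8.25 Gb in GFP-negative 9, 11 and M. Between 23068 and 24471 named genes were above 0 in the GFP-positive libraries and between 23229 and 24573 in the GFP-negative libraries, and none of 15 housekeeping genes was listed at 0. The first principal component of the tested genes held 63.0% of the variance and separated the groups, with GFP-negative 9 nearest to the GFP-positive side. All 18 Sertoli markers examined were above the filter, and their summed level was 2062 to 3868 FPKM in GFP-positive and 946 to 4120 FPKM in GFP-negative libraries. Of these markers, none passed as higher and 3 passed as lower in GFP-positive libraries: Sox9 (log2 difference -1.91, adjusted p = 0.00801), Gata4 (-1.81, adjusted p = 0.0285) and Gdnf (-1.26, adjusted p = 0.0153, all by limma). Over all genes tested, 14.5% passed as higher and 11.4% as lower. The Gdnf call was lost without GFP-positive 7 (adjusted p = 0.0762 by limma) or GFP-negative M (adjusted p = 0.0758 by limma), and the Gata4 call is taken up among the regulators. Germ cell markers were present as well, and their sum lay higher in the GFP-positive libraries, as given beside Rhox10 and Rhox13.

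Rhox5, the founding member of the family (gene ENSMUSG00000095180, chromosome X, 36891636 to 36897311, plus strand, mm39), is known as the most studied RHOX factor of Sertoli cells and supports germ cell survival. Its level was 0.116, 0.225 and 0.227 FPKM in GFP-positive 2, 4 and 7, against 0, 0.132 and 0 FPKM in GFP-negative 9, 11 and M. The groups overlapped, because GFP-negative 11 lay above GFP-positive 2. That overlap came with the scaling, since the FPKM as deposited was 0.129 in GFP-positive 2 and 0.123 in GFP-negative 11. The difference in log2(scaled FPKM + 0.5) was 0.35, GFP-positive minus GFP-negative, and the exact two-sided permutation test gave p = 0.2, where the smallest p that 3 against 3 libraries can give is 0.1. With the FPKM as deposited the difference was again 0.35, with an exact permutation p of 0.1. These values rested on 1288, 2169 and 2250 aligned bases in the GFP-positive libraries and on 1124 aligned bases in GFP-negative 11. In bulk RNA of this kind, fewer cells that hold a transcript and less of it per cell cannot be told apart.

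The Rhox5 signal fell on different annotated transcripts in the 2 groups. All of it in the GFP-positive libraries was assigned to ENSMUST00000184866, whose first base is 36891636. In GFP-negative 11, 0.116 FPKM as deposited was assigned to ENSMUST00000179626, which starts at 36891761, and 0.00674 FPKM to ENSMUST00000239524, which starts at 36894048. The fourth annotated transcript, ENSMUST00000239523, was listed at 0 in all libraries. Rhox5 is known for a proximal promoter used in Sertoli cells and a distal promoter used in other tissues, and the assignments rest on too few bases to compare promoter use.

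Rhox8 (gene ENSMUSG00000064137, chromosome X, 36963655 to 36967821, minus strand), the other member known from Sertoli cells, was the 1 gene of the set with its highest values in GFP-negative libraries. Its level was 0.117, 0.079 and 0 FPKM in GFP-positive 2, 4 and 7, against 0.368, 0 and 0.549 FPKM in GFP-negative 9, 11 and M. Both groups therefore held a library at 0, GFP-positive 7 and GFP-negative 11. The log2 difference was -0.45 (exact permutation p = 0.4), and it was -0.23 without GFP-negative M and -0.78 without GFP-negative 11. The 2 libraries with most Rhox8 had 4751 aligned bases (GFP-negative 9) and 5719 aligned bases (GFP-negative M).

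GFP-negative 11, where Rhox8 was listed at 0, was also the lowest of its group for Gata4, Foxl2 and the summed Sertoli markers, though not for each marker. Gata4, a transcription factor of Sertoli and other gonadal somatic cells, was at 0.869, 2.42 and 1.81 FPKM in GFP-positive 2, 4 and 7, against 11.6, 3.08 and 8.74 FPKM in GFP-negative 9, 11 and M. The summed Sertoli markers were 3868, 2984 and 2062 FPKM in GFP-positive 2, 4 and 7, against 4120, 946 and 3801 FPKM in GFP-negative 9, 11 and M, so library 11 was low in them as it was in Rhox8. Foxl2, a transcription factor of ovarian granulosa cells, was at 0, 0.0484 and 0.0417 FPKM in GFP-positive libraries and at 0.824, 0.117 and 1.64 FPKM in GFP-negative libraries, below the filter. Fst, also a granulosa marker, was not lowest in library 11, at 5.42, 6.39 and 7.18 FPKM in GFP-negative 9, 11 and M. Library 11 was the highest of its group for the summed fibroblast markers, at 47.0, 1137 and 281 FPKM in GFP-negative 9, 11 and M. The same held for the summed peritubular myoid markers, at 147, 529 and 135 FPKM, so its marker content differed broadly. The part of these genes in the Rhox8 values was not tested.

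Rhox5 and Rhox8 together summed to 0.233, 0.304 and 0.227 FPKM in GFP-positive libraries and to 0.368, 0.132 and 0.549 FPKM in GFP-negative libraries. Most Sertoli markers lay well above these values, but not all in every library: Gata1 was at 0 in GFP-positive 2 and in GFP-negative 9 and 11, and Fshr, the receptor for follicle-stimulating hormone, lay between 0.983 and 1.76 FPKM. Amh, a hormone of immature Sertoli cells, was at 4.58, 14.2 and 3.92 FPKM in GFP-positive and 9.21, 7.11 and 3.78 FPKM in GFP-negative libraries, and Wt1, a Sertoli transcription factor, was at 5.94, 9.43 and 6.47 FPKM in GFP-positive and 8.07, 7.81 and 10.6 FPKM in GFP-negative libraries. Neither marker passed the test (adjusted p by limma = 0.981 for Amh and 0.465 for Wt1).

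**Figure D1:**
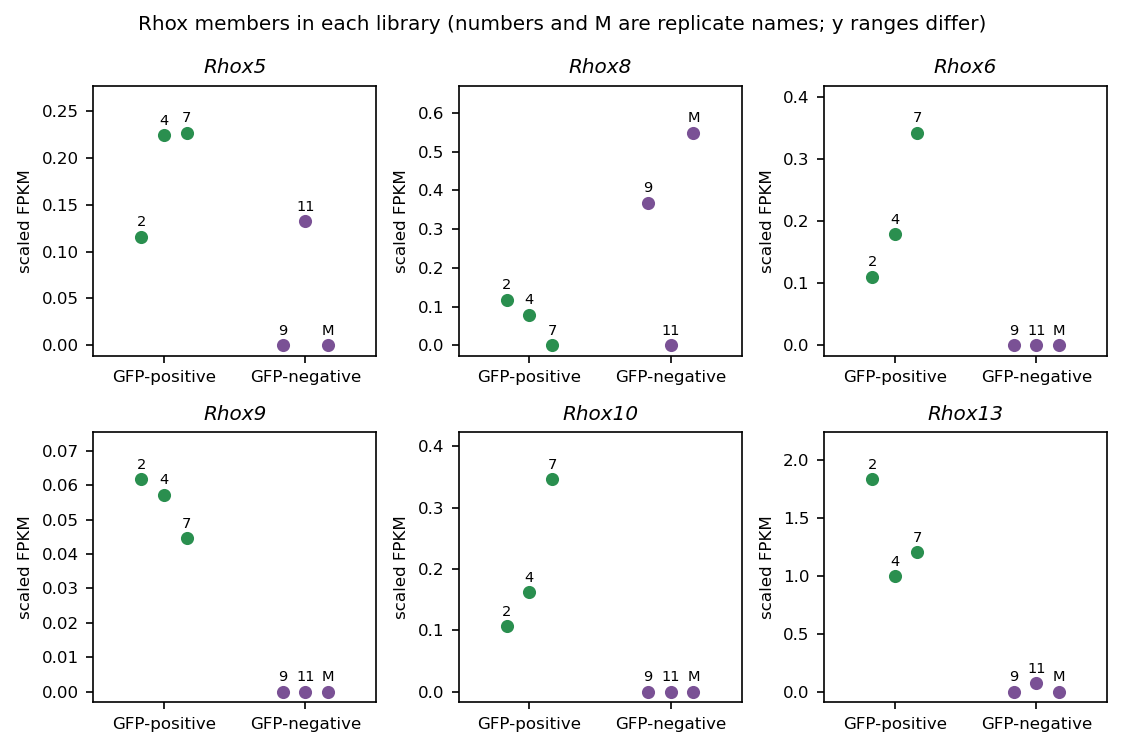
Scaled FPKM (y axis, range differs between panels) of the 6 Rhox genes in each library, with GFP-positive lines in green on the left and GFP-negative lines in purple on the right; each point is 1 library and carries its replicate name. Rhox5 and Rhox8 overlap between the groups, Rhox6, Rhox9 and Rhox10 are at 0 in all GFP-negative libraries, and Rhox13 lies between 0.998 and 1.83 FPKM in the GFP-positive libraries.

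Rhox6 (gene ENSMUSG00000006200, chromosome X, 36915787 to 36918734, plus strand), known from the placenta and from primordial germ cells, was at 0.111, 0.179 and 0.342 FPKM in GFP-positive 2, 4 and 7 and listed at 0 in GFP-negative 9, 11 and M. Its neighbour and near relative Rhox9 (gene ENSMUSG00000068048, chromosome X, 36987974 to 36990647, minus strand) was at 0.0617, 0.0573 and 0.0446 FPKM in GFP-positive 2, 4 and 7 and likewise listed at 0 in GFP-negative 9, 11 and M. The groups did not overlap for either gene. The log2 difference was 0.49 for Rhox6 and 0.15 for Rhox9, each with the smallest exact permutation p the design allows, 0.1. Rhox9 rested on 1700, 1500 and 1200 aligned bases in GFP-positive 2, 4 and 7 and Rhox6 on 1390, 1954 and 3840, so both were close to the limit of detection. Of the Rhox9 bases, 1608, 1500 and 1200 were assigned to ENSMUST00000170643, an annotated transcript of 2 exons and 2422 nt. The transcript of 4 exons, ENSMUST00000089062, had 92, 0 and 0, so it was assigned bases in GFP-positive 2 alone.

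Reads of Rhox6 and Rhox9 are partly interchangeable. In GENCODE transcripts of the GRCm38 annotation, 6.81% of the 100-base windows of Rhox6 also occur in Rhox9. For Rhox9 the share was 2.67% to 7.92% over its 2 transcripts. Windows of Rhox5, Rhox8, Rhox10 and Rhox13 occurred in no other annotated gene. The search took exact matches among annotated transcripts alone and covered 2 of the 4 Rhox5 transcripts, in shorter versions. The read length is not given, and moves of reads that match with mismatches were not tested.

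Rhox10 (gene ENSMUSG00000053909, chromosome X, 37155352 to 37160568, plus strand) encodes a factor of spermatogonia that in the mouse is needed to form spermatogonial stem cells. Its level was 0.107, 0.162 and 0.346 FPKM in GFP-positive 2, 4 and 7, and it was listed at 0 in GFP-negative 9, 11 and M. The log2 difference was 0.48 (exact permutation p = 0.1). GFP-positive 7 was the highest library for Rhox10, as for Rhox6, and GFP-positive 2 the lowest. The 3 GFP-positive values rested on 1011, 1340 and 2931 aligned bases.

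Rhox13 (transcript ENSMUST00000152730, chromosome X, 37210096 to 37218844, plus strand) encodes a homeodomain protein of differentiating spermatogonia and spermatocytes. Its level was 1.83, 0.998 and 1.20 FPKM in GFP-positive 2, 4 and 7, against 0, 0.0763 and 0 FPKM in GFP-negative 9, 11 and M. The lowest GFP-positive library lay above the highest GFP-negative library, and the signal rested on 19963, 9456 and 11676 aligned bases in the GFP-positive libraries and 600 in GFP-negative 11. Rhox13 rose in GFP-positive libraries by 1.79 on the log2(scaled FPKM + 0.5) scale (SE 0.28, adjusted p = 0.00777 by limma). Over all genes tested, 25.9% passed the same threshold, 14.5% as higher and 11.4% as lower, and among the 562 X-linked genes tested 20.3% passed as higher and 8.01% as lower. Rhox13 passed the filter through its GFP-positive libraries alone, so a gene of its level had to differ once it was tested. Its difference was 3.54 with a pseudocount of 0.1, 1.18 with a pseudocount of 1 and 1.16 once the dependence on transcript length had been taken out, and it passed in each of these.

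The order of the 6 genes in GFP-positive libraries put Rhox13 first, apart from all others. Rhox6 (0.211 ± 0.119 FPKM), Rhox10 (0.205 ± 0.125 FPKM) and Rhox5 (0.189 ± 0.063 FPKM) followed with ranges that overlapped, and then Rhox8 (0.0655 ± 0.0599 FPKM) and Rhox9 (0.0545 ± 0.0089 FPKM, SD, n = 3 each), whose ranges overlapped too. In GFP-negative libraries Rhox8 stood at 0.306 ± 0.28 FPKM, Rhox5 at 0.0441 ± 0.0763 FPKM and Rhox13 at 0.0254 ± 0.044 FPKM, and since each of the 3 had a library at 0 their ranges overlapped. Rhox10 and Rhox13 together summed to 1.94, 1.16 and 1.55 FPKM in GFP-positive libraries and to 0, 0.0763 and 0 FPKM in GFP-negative libraries.

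Of the 6 genes, 4 had every GFP-positive library above every GFP-negative library, and none had the reverse. The same held for 13.2% of the 30317 named genes above 0 anywhere, and for 24.7% of the 1199 X-linked ones. A gene above 0 in all GFP-positive libraries and at 0 in all GFP-negative libraries was rarer, at 3 of these 6 genes, against 1.05% of the named genes and 5.5% of the X-linked ones. The opposite pattern, above 0 in all GFP-negative and at 0 in all GFP-positive libraries, was found for none of the 6 genes and for 0.617% of the named genes. When the filter on low values was dropped and 33661 genes were tested, 2 of the 6 genes passed as higher and none as lower, beside 2.07% of all genes that passed as higher and 3.22% that passed in either direction. The 2 were Rhox13 (adjusted p = 0.0398 by limma) and Rhox9 (adjusted p = 0.0462 by limma), the second at about 0.05 FPKM and nearly all on its transcript of 2 exons. The adjusted p values of the others in that fit were 0.0735 for Rhox6, 0.0838 for Rhox10, 0.16 for Rhox5 and 0.385 for Rhox8. The median log2 difference of the 6 genes there was 0.41, beside -0.01 over all genes in the fit.

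The summed germ cell markers, like Rhox10 and Rhox13, were higher in every GFP-positive library than in any GFP-negative library, though not each marker was. Of 19 such markers examined, 11 were above the filter, of which 9 passed as higher in GFP-positive libraries and none as lower. None of the 19 had a mean of 0.5 FPKM in the GFP-negative libraries, so all 11 passed the filter through the GFP-positive libraries alone and the count supports nothing by itself. Their summed level was 168, 39.6 and 61.6 FPKM in GFP-positive 2, 4 and 7, against 2.20, 1.71 and 3.56 FPKM in GFP-negative 9, 11 and M. Dazl, an RNA-binding protein of germ cells, was at 49.6, 4.73 and 4.23 FPKM in GFP-positive libraries and 0.628, 0.213 and 0.496 FPKM in GFP-negative libraries, and Ddx4, a germ cell RNA helicase, at 6.001, 1.10 and 2.30 FPKM in GFP-positive libraries and 0, 0 and 0.0376 FPKM in GFP-negative libraries. The protamine genes Prm1 and Prm2, which mark late spermatids, were at 0 in all libraries. GFP-positive 2, the library with most germ cell marker RNA, also had the most Rhox13 but the least Rhox10 of its group. The part of germ cells in the Rhox values was not tested.

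By the measure used to find genes with a like pattern, Pearson's r of log2 levels over the 6 libraries, 861 of 11936 genes had an r of at least 0.9 with Rhox13. The 5 nearest were Tex101 (0.9965), Sohlh2 (0.9965), Rpsa (0.9964), Fthl17f (0.9963) and Magea5 (0.996). Tex101 encodes a germ cell surface protein and Sohlh2 a transcription factor of spermatogonia, while Rpsa encodes a protein of the small ribosomal subunit. Fthl17f, an X-linked ferritin-like gene, was at 3.42, 1.40 and 1.92 FPKM in GFP-positive libraries and at 0 in all GFP-negative libraries. With 2 groups that differ, an r of this size describes the group difference shared by many genes.

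Outside the 6 genes, 36 others in the tables had a symbol that begins with Rhox, and all 42 could be set side by side. Rhox1 to Rhox13 span 36477457 to 37218844 on chromosome X (741 kb), with 41 of the 42 inside. Summed over all 42, the level was 12.5, 6.57 and 7.51 FPKM in GFP-positive libraries and 0.706, 0.357 and 0.646 FPKM in GFP-negative libraries. The number of Rhox genes above 0 was 32, 25 and 25 in GFP-positive libraries, against 5, 5 and 3 in GFP-negative libraries. Rhox13 made up 14.6%, 15.2% and 15.995% of the Rhox sum in GFP-positive 2, 4 and 7.

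Of the 42 genes, 35 were above 0 in at least 1 library. In 21 of these every GFP-positive library lay above every GFP-negative library, and in none was the reverse true, beside 275 of 1164 X-linked genes without a Rhox symbol (23.6%) that lay higher in this way. In 17, including Rhox6, Rhox9 and Rhox10, all GFP-positive libraries were above 0 and all GFP-negative libraries at 0, against 49 of the same 1164 X-linked genes (4.21%). With 0.05 FPKM in place of 0 as the limit, the 17 became 11. Among genes with a mean level from 0.01 to 0.5 FPKM, to which 25 Rhox genes belonged, 16 of the 25 had this on and off pattern, beside 2.33% of the 12353 named genes in that range, and 18 of the 25 had groups that did not overlap, beside 8.67%. The 42 genes share a region and, in many cases, sequence, so they are not independent of each other.

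**Figure D2:**
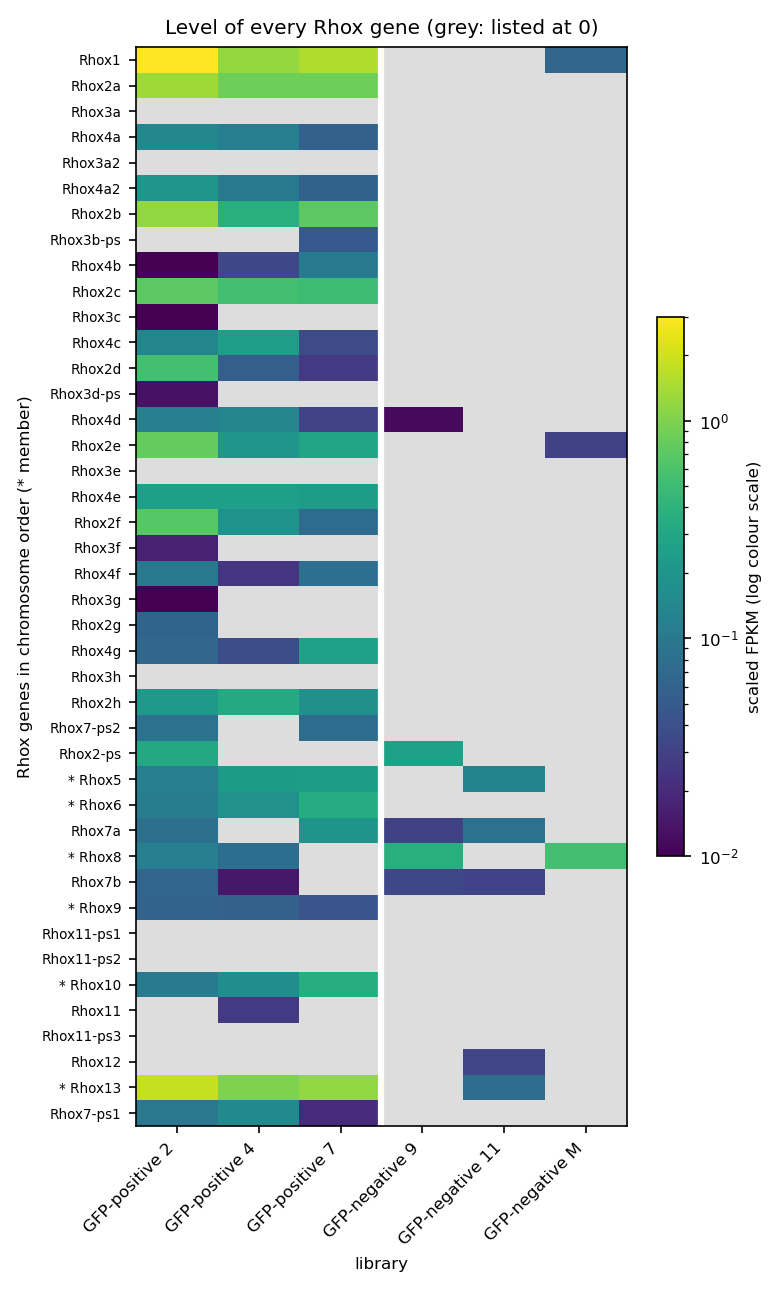
Scaled FPKM (log colour scale) of all 42 Rhox genes, in chromosome order from top to bottom, in the 3 GFP-positive libraries (left) and the 3 GFP-negative libraries (right); grey marks genes listed at 0 and asterisks the 6 genes described above. The left columns hold 32, 25 and 25 genes above 0 and the right columns 5, 5 and 3, with Rhox8 the brightest cell on the right.

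Rhox1, at the end of the cluster that lies farthest from Rhox13 (chromosome X, 36477457 to 36485911, minus strand), was the highest Rhox gene in the GFP-positive libraries. Its level was 2.95, 1.21 and 1.52 FPKM in GFP-positive 2, 4 and 7, against 0, 0 and 0.0662 FPKM in GFP-negative 9, 11 and M. It rose by 2.13 in log2 (SE 0.33, adjusted p = 0.00742 by limma), and by 3.98 with a pseudocount of 0.1. Rhox2a was at 1.34, 0.852 and 0.861 FPKM in GFP-positive libraries and at 0 in all GFP-negative libraries, with a log2 difference of 1.59 (SE 0.27, adjusted p = 0.00906 by limma). The Rhox2a call was lost without GFP-negative M (adjusted p = 0.0518 by limma) and with the length trend removed (difference 0.91, adjusted p = 0.0631 by limma). Like Rhox13, both genes passed the filter through their GFP-positive libraries alone.

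The copies of Rhox2 and Rhox4 carried most of the remaining signal. The 9 Rhox2 genes summed to 5.85, 2.53 and 2.62 FPKM in GFP-positive libraries and to 0.262, 0 and 0.0308 FPKM in GFP-negative libraries. The 8 Rhox4 genes summed to 1.02, 0.942 and 0.866 FPKM in GFP-positive libraries and to 0.0116, 0 and 0 FPKM in GFP-negative libraries. Up to 89.0% of the 100-base windows of a Rhox2 transcript and 48.7% to 98.1% of those of Rhox4 transcripts occur in another annotated gene, so the level of a single copy is uncertain and the family sum is the firmer value. The 9 Rhox3 genes were nearly silent, with sums of 0.0368, 0 and 0.0479 FPKM in GFP-positive libraries and 0 in GFP-negative libraries. Rhox11 was above 0 in GFP-positive 4 alone (0.0263 FPKM) and Rhox12 in GFP-negative 11 alone (0.0327 FPKM). The 4 Rhox7 genes summed to 0.331, 0.165 and 0.289 FPKM in GFP-positive libraries and to 0.0646, 0.116 and 0 FPKM in GFP-negative libraries.

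The 3 GFP-positive libraries did not rank the Rhox genes alike. Of the 22 Rhox genes above 0 in all 3, GFP-positive 2 was the highest for 12, GFP-positive 4 for 5 and GFP-positive 7 for 5, and GFP-positive 7 was the lowest for 11. Rhox1, Rhox2a and Rhox13 were highest in GFP-positive 2, whereas Rhox6 and Rhox10 were highest in GFP-positive 7. Rhox4e was nearly level, at 0.248, 0.250 and 0.231 FPKM in GFP-positive 2, 4 and 7 and 0 in the GFP-negative libraries.

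Promoters are shown for 4 of the genes that were above 0 in all GFP-positive libraries, since methylation of CpG sites is the textbook means by which the cluster is kept silent. Each is the window from 250 bases before to 50 bases after the annotated start, 5′ to 3′ on the gene's strand, from RefSeq on GRCm38.p6, with CpG sites in capitals. The coordinates belong to that build and differ from those of the deposited tables, which use mm39. Rhox1 at chrX:37222209-37222508 (minus strand) holds 0 CpG sites, Rhox2a at chrX:37244742-37245041 (plus strand) 8, Rhox10 at chrX:38066225-38066524 (plus strand) 9 and Rhox13 at chrX:38120590-38120889 (plus strand) 5.
Rhox1: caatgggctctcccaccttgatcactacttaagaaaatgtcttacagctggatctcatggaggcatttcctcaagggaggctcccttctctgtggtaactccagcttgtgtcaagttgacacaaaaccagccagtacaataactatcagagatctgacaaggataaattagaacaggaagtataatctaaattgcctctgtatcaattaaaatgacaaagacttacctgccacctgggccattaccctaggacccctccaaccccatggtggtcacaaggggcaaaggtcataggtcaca
Rhox2a: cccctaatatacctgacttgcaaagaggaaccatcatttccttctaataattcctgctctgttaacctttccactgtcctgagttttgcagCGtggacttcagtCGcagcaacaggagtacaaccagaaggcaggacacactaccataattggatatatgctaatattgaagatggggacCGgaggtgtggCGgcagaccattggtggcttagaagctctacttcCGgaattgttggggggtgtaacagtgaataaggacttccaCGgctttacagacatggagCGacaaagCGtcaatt
Rhox10: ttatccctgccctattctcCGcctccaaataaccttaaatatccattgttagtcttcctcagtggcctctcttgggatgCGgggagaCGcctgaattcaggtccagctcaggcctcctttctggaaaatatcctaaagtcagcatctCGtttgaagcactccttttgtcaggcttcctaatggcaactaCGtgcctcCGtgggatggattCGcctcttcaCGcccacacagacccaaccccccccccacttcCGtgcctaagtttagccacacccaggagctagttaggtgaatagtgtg
Rhox13: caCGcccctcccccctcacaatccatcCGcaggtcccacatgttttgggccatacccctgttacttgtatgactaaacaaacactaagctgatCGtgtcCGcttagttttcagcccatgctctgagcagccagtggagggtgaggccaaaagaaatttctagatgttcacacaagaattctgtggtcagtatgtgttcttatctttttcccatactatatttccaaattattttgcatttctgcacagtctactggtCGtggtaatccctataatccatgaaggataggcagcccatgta
The RefSeq start equals the GENCODE start of the measured transcript for Rhox1 and Rhox10. For Rhox13 it lies 379 bases from the GENCODE start, which is outside the printed window. For Rhox2a it lies 6 bases from the start of ENSMUST00000173650, at 0.412, 0.00614 and 0.227 FPKM as deposited in GFP-positive 2, 4 and 7. Most Rhox2a signal was on another transcript, ENSMUST00000063340, at 1.08, 0.772 and 0.619 FPKM as deposited. The 2 transcripts start close together in mm39, at 36508651 (ENSMUST00000173650) and 36508629 (ENSMUST00000063340). Rhox5, whose RefSeq window lies 50234 bases from the start of its measured transcript, is not printed.

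At the median, Rhox promoters held as many CpG sites as promoters at large, but none reached the upper quartile of all promoters. The 28 Rhox promoters in the RefSeq table had a median of 7 CpG sites (quartiles of 3 and 10, range 0 to 12), and all 32851 promoters had a median of 7 with quartiles of 3 and 20. Many of the 28 are copies of Rhox2, Rhox3 or Rhox4, so they are not independent. As few sites as in Rhox1 were found in 5.43% of all promoters, as few as in Rhox13 in 43.6%, as few as in Rhox2a in 54.2% and as few as in Rhox10 in 56.5%. The letters TGTTCT, the core of steroid hormone response elements, were searched on both strands and occur in 9 of the 28 Rhox promoters (32.1%), Rhox1 and Rhox13 among them, and in 18.97% of all promoters. The 9 also include Rhox3a and Rhox3h, whose windows are identical, and the copies Rhox4b, Rhox4f and Rhox4g. The letters CACGTG, an E-box, occur in 5 Rhox promoters (17.9%) and in 7.15% of all promoters. All 5 are copies of Rhox4 (Rhox4a2, Rhox4b, Rhox4e, Rhox4f and Rhox4g) with closely alike windows. Copies are not independent promoters, so these shares cannot be read as an excess over all promoters. The letters GCGGGA, bound by E2F factors, occur in 1 Rhox promoter (3.57%) and in 20.0% of all promoters. A match is a stretch of letters and not a measured binding site.

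Genes on both sides of the cluster did not share its pattern as a group. Of 13 neighbours examined, 11 were above the filter, 2 passed as higher in GFP-positive libraries and none as lower, with a median log2 difference of 0.07 beside 0.02 over all genes tested. As higher passed 14.5% of all genes tested and 20.3% of the X-linked ones, so the count of neighbours stood near these shares. Nearest to Rhox1, 21.3 kb away, Rnf113a1, which encodes a zinc finger protein of the spliceosome, had a log2 difference of -0.38 (adjusted p = 0.382 by limma). Nearest to Rhox13, 59.8 kb away, Zbtb33, which encodes the methyl-CpG-binding protein Kaiso, was at 3.25, 2.25 and 3.42 FPKM in GFP-positive and 5.51, 2.38 and 3.74 FPKM in GFP-negative libraries (log2 difference -0.29, adjusted p = 0.534 by limma). The difference of Zbtb33 was 0.058 with the length trend removed, and -1.20 (adjusted p = 0.0267 by limma) with FPKM scaled to the same total, where the median of all genes was -0.87.

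The 2 neighbours that passed encode small proteins of large complexes. Ndufa1, a subunit of respiratory complex I that lies 22.6 kb from Rhox1, was at 41.2, 37.1 and 39.99 FPKM in GFP-positive libraries and at 21.5, 11.96 and 19.9 FPKM in GFP-negative libraries (log2 difference 1.17, SE 0.28, adjusted p = 0.0216 by limma). That call was lost with the length trend removed (difference 0.21, adjusted p = 0.621 by limma), with quantile normalization (0.96, adjusted p = 0.0531 by limma), with no filter on level (adjusted p = 0.0606 by limma), with FPKM scaled to the same total (0.13, adjusted p = 0.753 by limma) and without each of GFP-positive 2, 4 and 7 and GFP-negative M. Rpl39, a ribosomal protein gene 128 kb from Rhox1, was at 558, 519 and 477 FPKM in GFP-positive libraries and at 207, 94.8 and 111 FPKM in GFP-negative libraries (log2 difference 1.99, SE 0.36, adjusted p = 0.0106 by limma). The Rpl39 call was lost without GFP-positive 7 (adjusted p = 0.0503 by limma), without GFP-negative M (adjusted p = 0.0585 by limma) and with quantile normalization (difference 1.07, adjusted p = 0.051 by limma).

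Tmem255a, on the Rhox13 side at 66.6 kb, varied within the GFP-positive group. Its level was 1.24, 33.4 and 29.9 FPKM in GFP-positive 2, 4 and 7, against 9.89, 7.66 and 12.2 FPKM in GFP-negative 9, 11 and M (log2 difference 0.25, adjusted p = 0.864 by limma). Without GFP-positive 2 the difference was 1.67 (adjusted p = 0.0192 by limma), and it was negative without GFP-positive 4 (-0.47) or 7 (-0.39). Inside the cluster, Btg1b, Btg1c and Dppa3-ps, which have no Rhox symbol, were all under 0.2 FPKM.

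**Figure D3:**
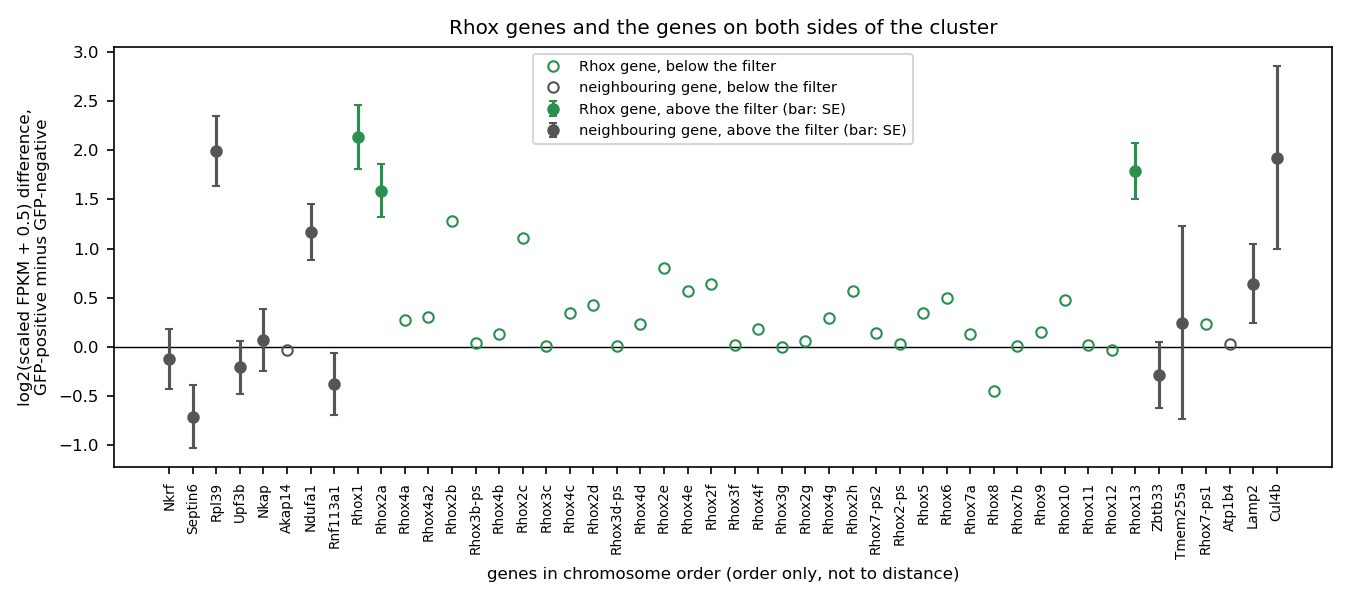
Difference in log2(scaled FPKM + 0.5), GFP-positive minus GFP-negative (y axis), for Rhox genes above 0 anywhere (green) and neighbouring genes (grey), in chromosome order and not to distance; filled points are above the filter and carry their SE, open points are below it. Rhox1 (2.13), Rhox2a (1.59) and Rhox13 (1.79) stand highest among Rhox genes, Rhox8 (-0.45) is the lowest of them, and the neighbours spread on both sides of 0.

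Genes known to control Rhox5 or DNA methylation were all above the filter. Of the 11 examined, none passed as higher in GFP-positive libraries and 2 passed as lower, Gata4 and Dnmt3a, with a median log2 difference of -0.49. Over all genes tested, 14.5% passed as higher and 11.4% as lower. Gata4 fell by 1.81 in log2 (SE 0.48, adjusted p = 0.0285 by limma), but this call was lost without any of GFP-positive 2, 4 or 7 or GFP-negative M, where the adjusted p by limma was 0.0549 to 0.105, with the length trend removed (difference -1.19, adjusted p = 0.121 by limma) and with no filter on level (adjusted p = 0.106 by limma).

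Dnmt3a, a methyltransferase that sets new DNA methylation, was lower in GFP-positive libraries, at 4.86, 4.71 and 3.95 FPKM, against 9.97, 25.2 and 25.6 FPKM in GFP-negative 9, 11 and M. Its log2 difference was -1.94 (SE 0.37, adjusted p = 0.012 by limma), and the groups did not overlap. The call was lost without GFP-positive 7 (adjusted p = 0.0569 by limma), without GFP-negative M (adjusted p = 0.0615 by limma) and with no filter on level (adjusted p = 0.0539 by limma). The maintenance genes Dnmt1 (log2 difference -0.83, adjusted p = 0.314 by limma) and Uhrf1 (1.08, adjusted p = 0.0846 by limma) and the second de novo enzyme gene Dnmt3b (0.58, adjusted p = 0.155 by limma) did not pass. Methylation itself was not measured.

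The remaining regulators also missed the threshold. Gata6, a relative of Gata4, had a log2 difference of -0.55, the ETS factor genes Elf1 and Gabpa had -0.49 and -0.65 and Gabpb1, which encodes the partner of Gabpa, had 0.01. Sp1 and Sp3, which encode zinc finger factors that bind GC boxes, had -0.11 and 0.45. Among 4 androgen-dependent Sertoli genes, Tubb3, a tubulin gene, was the 1 above the filter and did not pass (-0.47, adjusted p = 0.333 by limma).

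Of 6 genes reported to depend on RHOX5 or RHOX10, 2 were above the filter and both rose in GFP-positive libraries. Over all genes tested, 14.5% passed as higher, and a count of 2 genes says nothing about the list as a whole. Dmrt1, a transcription factor of Sertoli cells and spermatogonia linked to RHOX10, was at 58.5, 58.8 and 55.9 FPKM in GFP-positive libraries and at 24.6, 25.6 and 29.8 FPKM in GFP-negative libraries (log2 difference 1.10, SE 0.23, adjusted p = 0.0145 by limma). The call for Dmrt1 was lost without GFP-positive 7 (adjusted p = 0.0652 by limma), without GFP-negative M (adjusted p = 0.0637 by limma) and with FPKM scaled to the same total in all libraries, which moved the median of all genes to -0.87 and left Dmrt1 at 0.06. Piwil2, a piRNA-binding protein of germ cells, was at 7.998, 3.24 and 5.07 FPKM in GFP-positive libraries and at 0.450, 0.685 and 0.734 FPKM in GFP-negative libraries (log2 difference 2.33, SE 0.35, adjusted p = 0.00729 by limma). Unc5c, a netrin receptor gene held down by RHOX5 in mouse Sertoli cells, was at 0.0725, 0.0945 and 0.143 FPKM in GFP-positive and 0.230, 0.153 and 0.282 FPKM in GFP-negative libraries, below the filter. Gdap1, Ins2 and Zbtb16 were below the filter as well. Gdap1 lay higher in GFP-positive libraries (0.231, 0.0201 and 0.0663 FPKM against 0.00709, 0 and 0.00826 FPKM in GFP-negative libraries). The groups overlapped for Ins2 (0, 0 and 0.106 against 0.0480, 0 and 0.103 FPKM) and Zbtb16 (1.25, 0.280 and 0.366 against 0.0172, 0.185 and 0.328 FPKM). With no filter on level, neither these genes nor Unc5c passed (adjusted p by limma 0.212 to 0.808). Piwil2 and Dmrt1 are also germ cell genes, and the part of the germ cell markers in these values was not tested.

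**Figure D4:**
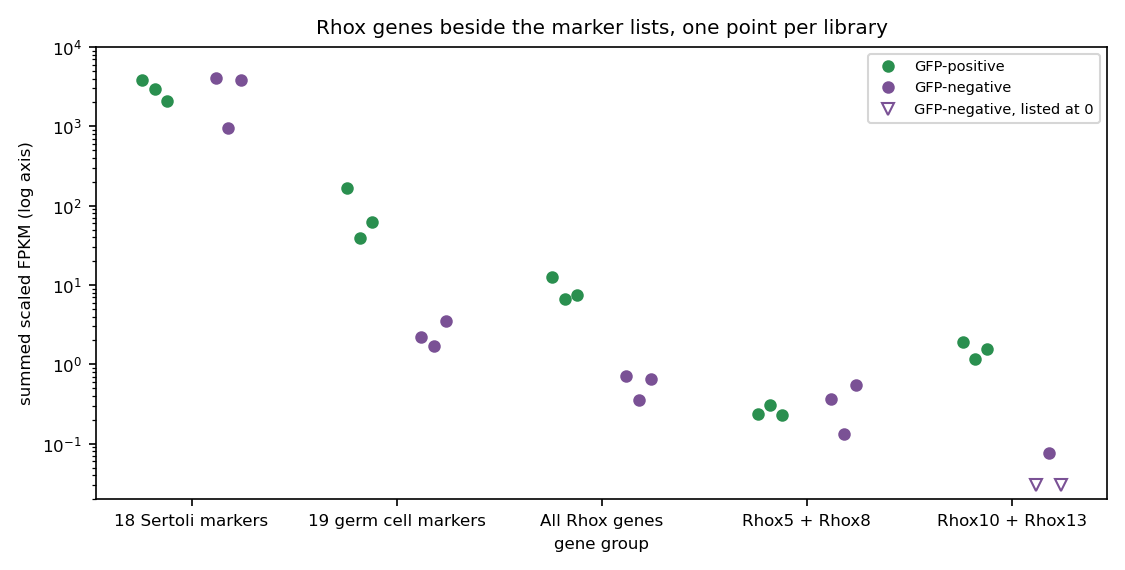
Summed scaled FPKM (y axis, log scale) of 18 Sertoli markers, 19 germ cell markers, all Rhox genes, Rhox5 with Rhox8 and Rhox10 with Rhox13; each point is 1 library, GFP-positive in green to the left of GFP-negative in purple, and triangles mark sums listed at 0. The Sertoli markers and Rhox5 with Rhox8 overlap between the groups, while the germ cell markers, all Rhox genes and Rhox10 with Rhox13 do not. Clu is the largest part of the Sertoli marker sum in every library.

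Markers of other cell types that such lines could hold were examined beside the Rhox genes. Of 6 Leydig cell markers 4 were above the filter and 1 passed as lower, and of 5 peritubular myoid markers all 5 were above it and 2 passed as lower. Of 5 fibroblast markers 4 were above it and 1 passed as lower, and of 5 macrophage markers 2 were above it and 1 passed as lower. These counts stand beside 11.4% of all genes tested that passed as lower. None of the 4 epididymal epithelium markers, a tissue in which Rhox5 is also known, was above the filter, and 3 of them were at 0 in all libraries. Of 4 endothelial markers and of 3 granulosa markers 1 each was above the filter and did not pass. Of 4 pluripotent cell markers, 1 was above the filter, Pou5f1, at 6.99, 1.72 and 1.78 FPKM in GFP-positive libraries and 0.0824, 0.278 and 0.120 FPKM in GFP-negative libraries (log2 difference 2.36, adjusted p = 0.0131 by limma). Pou5f1 passed the filter through its GFP-positive libraries alone. It is also expressed by spermatogonia, and its part in the Rhox values was not tested.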

How the data were processed

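Total RNA was extracted with TRIzol, treated with DNase, depleted of ribosomal RNA and made into strand-specific libraries by the dUTP method, per the labels' protocols. Trimmomatic, HISAT2, StringTie and the mm39 build are listed, per the submitters' processing notes, with no versions and no strand setting, so antisense partners are not told apart with certainty. The deposited tables hold the authors' FPKM and mean per-base coverage (signal) for 153503 transcripts, per the file headers. FPKM was summed over transcripts with the gene's name. Unnamed isoforms, 5.36% to 8.16% of FPKM, were left out. A median-of-ratios factor for each library came from 12360 genes (mean FPKM 1 or more and above 0 in all libraries). Genes with a mean scaled FPKM under 0.5, or a longest transcript under 200 nt, were left out, which left 15095. The values log2(scaled FPKM + 0.5) went into limma 3.58.1 under R 4.3.3 (eBayes with a trend), with Benjamini-Hochberg adjustment over all genes tested and a threshold of 0.05. Fold changes on this scale understate changes of low genes. For genes below the filter, the log2 means were permuted exactly over the libraries (two-sided). Aligned bases are coverage times length. The sources used here give no read length, so no counting interval is given. The fit was tested on simulated data. Python 3.11.15, pandas 2.3.3 and matplotlib 3.10.9 read and drew the tables.

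The members and lists were chosen with earlier results of these data known. Named genes are the 6 members, the other Rhox genes (in full if their mean is at least 0.5 FPKM), listed neighbours, regulators, androgen-dependent and RHOX-dependent genes above the filter, and the 5 genes most like Rhox13. Genes outside that rule, such as Foxl2, Fst, Amh, Clu, Inhbb, Wt1, Gata1, Fshr, Dazl, Ddx4, Prm1, Prm2, Pou5f1, Unc5c, Gdap1, Ins2, Zbtb16, Rhox4e, Rhox11 and Rhox12, were chosen after their values were seen. A regulator on the list is not reported here. Replicate names are not shared between groups, so no pairing was used.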

Additional observations from a re-analysis of the deposited data

How the results depend on the processing

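The log2 differences of all 6 genes kept their direction under each alternative that gave a value, from 0.17 to 1.10 for Rhox5 and from -0.99 to -0.23 for Rhox8. Rhox13 passed in all 16 alternatives that tested it, with 1.16 to 3.54 and a highest adjusted p by limma of 0.048, reached without GFP-negative M. Because Rhox13 passed the filter through its GFP-positive libraries alone, these passes are no independent support for the difference. The fits without 1 library kept the genes chosen on all 6 libraries. With a filter of 1 FPKM none of the 6 genes was left to test. Without a filter 2 of them passed, instead of 1, and 0.05 FPKM as the limit gave 11 Rhox genes in place of 17 with the on and off pattern. Over all genes 3910 passed, against 1085 without a filter, 7075 with equal sums, 11098 with library weights (arrayWeights, which stopped before it converged), 2260 with the length trend removed, and 464 to 5600 without 1 library. Of the calls, 55.8% were higher in GFP-positive libraries, against 7.99% with equal sums, where the median of all genes was -0.87, and 45.8% with the length trend removed. The causes were not tested. The sign turned for Zbtb33 (0.058) with the length trend removed, and for Tmem255a with equal sums (-0.76) and without GFP-positive 4 or 7, in a range of -0.47 to 1.67 without 1 library. With equal sums Ndufa1 was at 0.13 and did not pass. Rhox5, Rhox6, Rhox8, Rhox9 and Rhox10 rested on 5719 aligned bases or fewer in every library. A gene listed at 0 had no bases assigned in that library, and absence cannot be told apart from a level too low to be sampled. No paired analysis was possible because the replicate names are not shared between the groups.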
